A study of Homo sapiens with 6 samples.

Results

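The genes described here encode the machinery that copies DNA in S phase and the machinery that divides chromosomes in mitosis. The set was fixed as 46 gene symbols, of which 24 act in S phase or at its entry, 21 in G2 and mitosis (G2/M), and 1, the G1 cyclin gene CCND1, stands on its own. Each of the 46 symbols matched 1 row of the 57820 in the count table, and all 46 passed the filter on low counts that left 17225 genes for testing. RNA came from HEK293 cells, an established line of human embryonic kidney origin. One group of 3 libraries, the control, received DMSO, the solvent of the drug, and the other group of 3 received minocycline, a tetracycline antibiotic, at 100 µM. Both groups were harvested after 12 h without heat shock and came from the same line in the same medium. The labels name the 3 libraries of each group by replicate and batch, and the series' design text calls them biological replicates. No step that would synchronise the cells is given in the labels, so each library pools cells of all cycle phases. In such bulk RNA, fewer cells in a phase and less transcript per cell cannot be told apart.

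Before S phase, the origin recognition complex, CDC6 and CDT1 load the ring-shaped MCM helicase on DNA, and CDC45 and the GINS complex then join it to form the active helicase. Transcription of these genes rises at the G1/S boundary through E2F factors, which the retinoblastoma protein restrains. HEK293 cells carry adenoviral E1A, a protein that binds the retinoblastoma protein. Genes of G2 and mitosis peak later, through B-MYB and FOXM1 acting with the MuvB complex at a promoter element called CHR (cell cycle genes homology region), often beside CCAAT boxes bound by NF-Y.

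These promoter elements were looked for in RefSeq promoter windows (GRCh38.p14, 250 bases before to 50 after the first listed start of each gene), because E2F and CHR elements are known for S phase and for G2/M genes respectively. An E2F word (TTTCGCGC, TTTGGCGC, TTTCCCGC or TTTGCCGC, on either strand) was present in 13 of the 21 S phase genes with a window (61.9%), in 1 of 16 G2/M genes (6.25%) and in 3.33% of all 27305 windows. A CHR word (TTTGAA or TTTAAA, on either strand) was present in 3 of 21 S phase genes (14.3%), in 12 of 16 G2/M genes (75.0%) and in 24.3% of all windows. The CCAAT word was held by 71.4% of the S phase windows, 81.2% of the G2/M windows and 35.7% of all windows. Matches can overlap (an E2F word with another on the opposite strand, or a CHR word with CCAAT at an end base), each kind was counted by itself, and a match describes letters, not a bound site. No window was used for CCND1, MCM4, MCM5, CCNE2, UBE2C, AURKA, BIRC5, TPX2 and TTK.

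The following stretches of 100 bases before the start (for POLA1 from -189 to -90, for the others from -100 to -1), written 5′ to 3′ on the gene's strand with the E2F word in capitals, belong to the 3 S phase genes with the smallest unadjusted p in the comparison below among those with an E2F word before the start. GINS1, which ranks between GINS2 and POLA1 by p, holds its E2F word after the start and is not printed.
GINS2, chr16:85688955-85689054, minus strand: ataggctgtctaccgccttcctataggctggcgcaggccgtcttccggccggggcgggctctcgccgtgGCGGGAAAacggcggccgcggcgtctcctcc
POLA1, chrX:24693729-24693828, plus strand: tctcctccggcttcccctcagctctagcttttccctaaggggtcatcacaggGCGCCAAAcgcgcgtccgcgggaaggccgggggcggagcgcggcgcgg
PCNA, chr20:5126623-5126722, minus strand: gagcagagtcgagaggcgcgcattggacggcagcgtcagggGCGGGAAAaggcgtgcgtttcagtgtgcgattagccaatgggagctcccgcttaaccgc

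The stretches of the 3 G2/M genes with a CHR word before the start and the smallest unadjusted p are given in the same way, with the CHR word in capitals.
CDC20, chr1:43358881-43358980, plus strand: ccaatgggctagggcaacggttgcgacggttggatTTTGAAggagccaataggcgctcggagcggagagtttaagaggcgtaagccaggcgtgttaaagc
CCNB1, chr5:69167050-69167149, plus strand: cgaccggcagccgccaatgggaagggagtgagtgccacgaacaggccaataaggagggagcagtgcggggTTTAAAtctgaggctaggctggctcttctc
PLK1, chr16:23678789-23678888, plus strand: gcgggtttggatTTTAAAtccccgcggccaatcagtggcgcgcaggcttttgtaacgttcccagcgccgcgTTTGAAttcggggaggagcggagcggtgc

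The total count was 17303180 to 17835756 per library, and the 46 genes took 0.912% to 0.999% of it. The lowest count of any of them was 114 and the highest 17337, so that no value of these 46 genes rests on a handful of reads. Of the 8 lineage markers fixed for HEK293, 6 were matched, and NEFL and LHX1 were not. Levels are in CPM, counts per 1e6 reads of a library after TMM scaling, a correction for library composition. All 6 were detected, from PAX2 at 2.61 to 5.08 CPM up to NEFM at 68.9 to 84.6 CPM. Of the leukocyte markers PTPRC, CD3E and LYZ reached at most 0.163 CPM and CD14 lay between 1.63 and 2.80 CPM. Of the endothelial markers CDH5 reached at most 0.163 CPM, KDR 0.605 CPM and VWF 2.88 CPM. Of the fibroblast markers COL1A2, DCN and THY1 reached at most 0.119 CPM, PDGFRB 0.955 CPM and COL3A1 2.15 CPM, while COL1A1, a collagen gene, lay between 53.0 and 81.1 CPM. The HEK293 markers GATA2 and INA were at -0.26 ± 0.13 and 0.25 ± 0.14 on the log2 scale with minocycline, each without overlap of the groups and neither past the threshold (edgeR adjusted p = 0.820 for both). Groups did not overlap in 9.31% of all genes tested, and COL1A1, lower with minocycline, was also among these. The summed level of the 6 fibroblast markers was 76.1 to 83.1 CPM in control and 55.5 to 72.1 CPM with minocycline, nearly all of it COL1A1, and its part in the results was not tested. Control replicate 1 stood apart from the other controls. On the first principal component, which held 51.8% of the variance, it lay at -36.0 against 32.1 and 48.8 for control replicates 2 and 3, and minocycline replicates 1, 2 and 3 lay at -14.8, -33.2 and 3.19.

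None of the replication and mitosis genes passed the test for a difference with minocycline when all 6 libraries were used, and 8 passed without control replicate 1 (described further on). With all libraries, 0 of the 46 genes had a Benjamini-Hochberg adjusted p under 0.05 in edgeR's quasi-likelihood test over all genes, where 0.0522% of all genes passed. At an unadjusted p under 0.05 the count was also 0 of 46, against 4.7% of all genes. DESeq2 and limma-voom gave 0 of 46 past the adjusted threshold as well. In none of the 46 genes did the 3 minocycline libraries lie wholly above or wholly below the 3 control libraries, an arrangement that 9.31% of all genes showed. The fitted log2 fold change (minocycline minus control) ran from -0.33 for GINS2 to 0.33 for CCNE2, with a median of -0.06, against 0.01 over all genes tested.

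An interval was set for each gene by itself and gives the range of change that the fit of all 6 libraries allowed. The 95% interval of the fold change lay within a 2-fold change in either direction for 45 of 46 genes, the exception being CENPE (-1.29 to 0.71), and within 1.5-fold for 35. A fitted level above control was found for 14 of 46 genes, against 52.1% of all genes tested. That split depended on the processing. With libraries scaled by total count alone 25 of 46 were above control, and the median of all genes moved to 0.08. The number was 11 in DESeq2 and 7 after a correction for transcript length and GC (described further on). With that correction the median was -0.09 for the 46 genes and -0.03 for all genes.

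**Figure D1:**
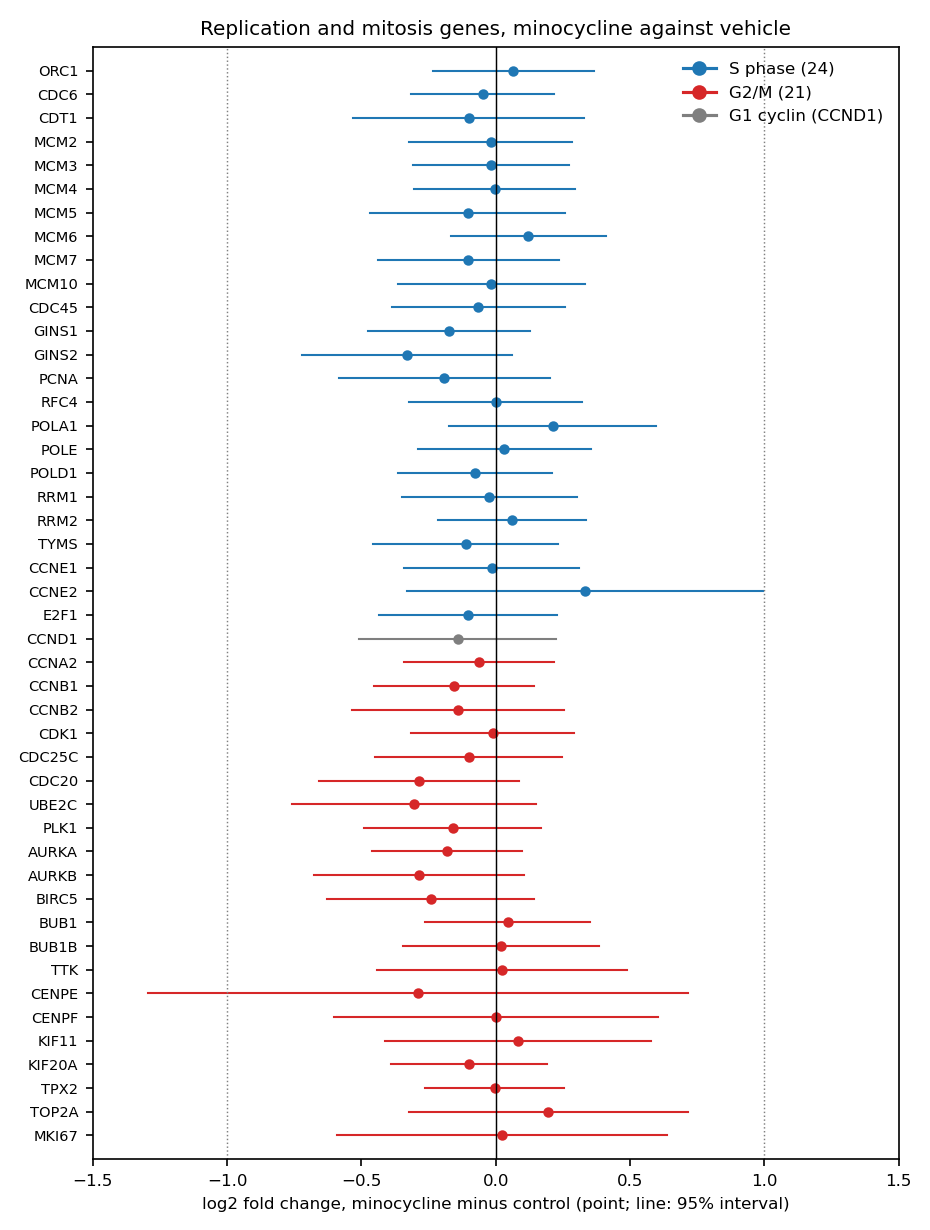
Log2 fold change of each gene, minocycline minus control, from edgeR's quasi-likelihood fit on 3 libraries per group, with points for the estimate and lines for the 95% interval (dotted lines mark a 2-fold change). Every interval spans 0, and the interval of CENPE alone passes a 2-fold change.

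Among the genes of origin licensing and the replicative helicase, 2 of 13 had a higher fitted level and 11 a lower one, with a median of -0.05. GINS2, a subunit of the GINS complex, showed the smallest unadjusted p of all 46 genes. It measured 69.0, 90.5 and 110.6 CPM in control replicates 1, 2 and 3 and 70.2, 67.3 and 77.1 CPM in minocycline replicates 1, 2 and 3. Control replicate 1 lay within the minocycline range, and the other controls lay above it. The log2 fold change of GINS2 was -0.33 ± 0.17 (SE; edgeR adjusted p = 0.820, unadjusted p = 0.0873).

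Its partner GINS1 measured 70.2, 74.5 and 80.0 CPM in control and 72.8, 68.5 and 57.9 CPM with minocycline, a log2 fold change of -0.17 ± 0.13 (edgeR adjusted p = 0.825). The groups overlapped, with minocycline replicate 3 as the lowest library. MCM6, a subunit of the helicase ring, measured 180.2, 162.0 and 158.0 CPM in control and 168.3, 202.4 and 173.5 CPM with minocycline, a log2 fold change of 0.12 ± 0.13 (edgeR adjusted p = 0.844). Here the highest library was minocycline replicate 2, and the next was control replicate 1.

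The other 5 subunits of the MCM ring differed between group means by less than the SD of the control replicates. For MCM5 and MCM7 the difference exceeded the SD of the minocycline replicates. MCM2 had a mean of 385.6 ± 37.5 CPM (SD, n = 3) in control and 380.5 ± 29.7 CPM with minocycline. MCM3 had 581.6 ± 40.7 and 575.1 ± 27.0 CPM, and MCM4 had 435.0 ± 22.4 and 433.8 ± 45.7 CPM. MCM5 went from 395.2 ± 79.1 to 367.5 ± 8.06 CPM and MCM7 from 907.9 ± 130.1 to 846.0 ± 29.9 CPM. The wide control spread of MCM5 came with control replicate 1 at 308.0 CPM, below the other 5 libraries. Per length, MCM7 was the most abundant of the 46 genes in control (368.0 ± 52.8 RPKM, which is CPM divided by the length of the canonical transcript in kilobases, SD, n = 3), while MCM6 stood at 44.4 ± 3.16 RPKM. Among the loading factors, the difference between group means exceeded the SD of the control replicates for ORC1, but not for CDC6 and CDT1. For ORC1 it stayed under the SD of the minocycline replicates. ORC1, the largest origin recognition subunit, had 46.5 ± 1.32 and 48.7 ± 5.70 CPM, and CDC6 had 141.9 ± 5.72 and 137.3 ± 9.56 CPM. CDT1, which brings the ring to the origin, had 238.9 ± 56.7 and 222.8 ± 30.9 CPM, with control replicate 1 (176.2 CPM) and minocycline replicate 2 (187.3 CPM) lowest. CDC45 had 139.6 ± 21.3 and 133.5 ± 8.4 CPM, and MCM10, an initiation factor, had 65.9 ± 9.70 and 65.1 ± 8.88 CPM.

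Of the 5 genes for polymerases, the sliding clamp and its loader, 3 had a higher and 2 a lower fitted level (median 0.00). PCNA, the sliding clamp, measured 231.7, 327.4 and 356.0 CPM in control and 247.2, 255.2 and 298.7 CPM with minocycline. Its log2 fold change was -0.19 ± 0.17 (edgeR adjusted p = 0.830), and every minocycline library lay between control replicates 1 and 2. POLA1, the catalytic subunit of the polymerase that starts each fragment, ran in the reverse order across the controls. It measured 64.8, 49.7 and 43.2 CPM in control and 53.7, 67.1 and 62.0 CPM with minocycline, a log2 fold change of 0.21 ± 0.17 (edgeR adjusted p = 0.826). POLD1, the catalytic subunit of the lagging-strand polymerase, measured 280.3, 291.9 and 313.8 CPM in control and 293.4, 296.2 and 250.9 CPM with minocycline. The fold change of POLD1 was -0.08 ± 0.13 on the log2 scale (edgeR adjusted p = 0.894). POLE, the leading-strand polymerase, had 266.2 ± 29.9 and 272.2 ± 31.8 CPM, and RFC4, of the clamp loader, had 81.2 ± 6.51 and 81.2 ± 11.9 CPM. RFC4 overlaps EIF4A2 on the opposite strand. No source used here states whether counting was strand-aware, so reads of overlapping exons may have been assigned to either gene, here and for 10 more of the 46 genes whose exons overlap a tested gene of the opposite strand (CCNA2, CCND1, CCNE2, CDC25C, GINS1, GINS2, KIF20A, MCM7, PLK1 and TYMS).

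Enzymes of deoxynucleotide supply differed little between groups. RRM1 and RRM2 encode the large and small subunits of ribonucleotide reductase, and TYMS encodes thymidylate synthase. RRM2 measured 395.8, 405.5 and 435.6 CPM in control and 442.3, 441.1 and 406.8 CPM with minocycline, a log2 fold change of 0.06 ± 0.12 (edgeR adjusted p = 0.910). RRM1 measured 418.4, 346.0 and 351.4 CPM in control and 337.4, 418.6 and 341.7 CPM with minocycline, a log2 fold change of -0.02 ± 0.15 (edgeR adjusted p = 0.970). Its high libraries were control replicate 1 and minocycline replicate 2, the same libraries in which TYMS was lowest. TYMS measured 152.8, 194.8 and 222.5 CPM in control and 173.7, 168.5 and 185.3 CPM with minocycline, a log2 fold change of -0.11 ± 0.15 (edgeR adjusted p = 0.874).

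Regulators of S phase entry gave the highest and some of the smallest estimates. CCNE2, a cyclin that activates CDK2, was the least counted of the regulators. It measured 14.7, 6.81 and 7.38 CPM in control and 12.7, 13.9 and 9.89 CPM with minocycline, a log2 fold change of 0.33 ± 0.29 (edgeR adjusted p = 0.830). Control replicate 1 was its highest library, so the groups overlapped. CCNE1, the other E-type cyclin, measured 22.7, 25.3 and 23.5 CPM in control and 25.2, 24.5 and 20.9 CPM with minocycline, a log2 fold change of -0.02 ± 0.15 (edgeR adjusted p = 0.984). E2F1, the activator of S phase genes, measured 142.2, 177.3 and 197.0 CPM in control and 172.3, 149.0 and 159.8 CPM with minocycline, a log2 fold change of -0.10 ± 0.15 (edgeR adjusted p = 0.880). The G1 cyclin gene CCND1 measured 91.0, 75.2 and 71.6 CPM in control and 71.2, 84.9 and 59.5 CPM with minocycline, with a log2 fold change of -0.14 ± 0.16 (edgeR adjusted p = 0.849).

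All 5 genes for mitotic cyclins, CDK1 and its phosphatase had a fitted level below control, with a median of -0.10, and none passed. CCNB1, the main mitotic cyclin, measured 242.7, 293.0 and 304.8 CPM in control and 238.6, 254.7 and 261.3 CPM with minocycline, a log2 fold change of -0.16 ± 0.13 (edgeR adjusted p = 0.828). CCNB2, the second B-type cyclin, measured 82.8, 121.1 and 121.6 CPM in control and 91.7, 90.1 and 113.5 CPM with minocycline, a log2 fold change of -0.14 ± 0.18 (edgeR adjusted p = 0.859). In both genes control replicates 2 and 3 were the highest libraries. CDC25C, the phosphatase that activates CDK1, measured 37.6, 52.5 and 50.9 CPM in control and 42.6, 42.9 and 45.9 CPM with minocycline, a log2 fold change of -0.10 ± 0.16 (edgeR adjusted p = 0.886). CDK1, the mitotic kinase, was nearly level over the controls (138.2 ± 1.67 CPM) and spread more with minocycline (137.1 ± 19.4 CPM). CCNA2, a cyclin of S phase and G2, had 104.7 ± 7.94 and 100.3 ± 6.79 CPM.

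The 2 partners of the anaphase-promoting complex had the lowest group median, -0.30. CDC20, its mitotic activator, measured 235.8, 330.7 and 356.3 CPM in control and 260.3, 235.3 and 261.6 CPM with minocycline, a log2 fold change of -0.29 ± 0.17 (edgeR adjusted p = 0.820). UBE2C, its ubiquitin-conjugating enzyme, measured 128.3, 204.6 and 216.8 CPM in control and 146.7, 128.6 and 169.4 CPM with minocycline, a log2 fold change of -0.31 ± 0.20 (edgeR adjusted p = 0.820). In both genes control replicate 1 lay with or below the minocycline libraries and the other controls above them. A pseudogene copy, UBE2CP5, took 239 to 382 counts per library, so reads of UBE2C may be split with it.

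The 7 mitotic kinase and checkpoint genes held 3 with a higher and 4 with a lower fitted level (median -0.16). AURKB, the kinase of the chromosomal passenger complex, had raw counts of 3135, 4187 and 4400 in control and 3465, 3212 and 3480 with minocycline. Its fold change was -0.29 ± 0.17 on the log2 scale (edgeR adjusted p = 0.820). BIRC5, which encodes survivin of the same complex, measured 91.2, 127.0 and 143.9 CPM in control and 101.9, 95.2 and 109.0 CPM with minocycline, a log2 fold change of -0.24 ± 0.17 (edgeR adjusted p = 0.820). In both genes control replicate 1 was the lowest library and minocycline replicate 2 the next. AURKA, the centrosomal kinase, measured 106.5, 125.4 and 127.3 CPM in control and 101.1, 108.5 and 107.3 CPM with minocycline, a log2 fold change of -0.18 ± 0.12 (edgeR adjusted p = 0.820). PLK1, a kinase of mitotic entry, had 304.7 ± 49.4 and 272.6 ± 8.30 CPM. Of the spindle checkpoint kinases, BUB1 had 93.2 ± 10.6 and 96.1 ± 9.14 CPM, BUB1B had 78.7 ± 13.7 and 79.8 ± 11.1 CPM, and TTK had 57.0 ± 12.5 and 58.0 ± 12.6 CPM.

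The 5 kinetochore, motor and spindle genes held both the largest and the smallest SE of the 46. CENPE, a kinetochore motor, measured 46.9, 22.6 and 14.4 CPM in control and 11.1, 29.5 and 28.1 CPM with minocycline. The controls alone spanned the levels of 5 of the 6 libraries, and minocycline replicate 1 was the lowest. Its log2 fold change was -0.29 ± 0.45 (edgeR adjusted p = 0.887), the largest SE of the 46 genes, where the median SE was 0.15. CENPF, a kinetochore protein of G2 and mitosis, measured 244.6, 153.3 and 120.9 CPM in control and 123.4, 197.1 and 199.1 CPM with minocycline, and its group means of 172.9 and 173.2 CPM nearly coincided. KIF11, the motor that separates spindle poles, measured 128.3, 83.8 and 71.0 CPM in control and 82.4, 113.6 and 103.8 CPM with minocycline, a log2 fold change of 0.08 ± 0.22 (edgeR adjusted p = 0.933). KIF20A, a motor of cytokinesis, was steadier. It measured 136.6, 166.3 and 169.3 CPM in control and 140.1, 150.1 and 150.1 CPM with minocycline, a log2 fold change of -0.10 ± 0.13 (edgeR adjusted p = 0.863). TPX2, a spindle assembly factor, had 238.7 ± 5.11 and 238.1 ± 11.6 CPM, and its SE of 0.12 was the smallest of the 46.

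TOP2A, which untangles sister chromosomes, and MKI67, which coats them and encodes the Ki-67 proliferation marker, shared this spread. TOP2A measured 605.4, 352.2 and 363.7 CPM in control and 404.6, 591.9 and 517.3 CPM with minocycline, a log2 fold change of 0.20 ± 0.23 (edgeR adjusted p = 0.852). MKI67 measured 591.0, 303.7 and 287.2 CPM in control and 334.6, 487.4 and 378.7 CPM with minocycline, a log2 fold change of 0.02 ± 0.27 (edgeR adjusted p = 0.988). In both genes control replicate 1 was highest and minocycline replicate 2 next, so that the spread within each group exceeded the difference between group means.

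S phase genes were then set against G2/M genes. Among the 24 S phase genes 7 had a higher and 17 a lower fitted level, with a median log2 fold change of -0.02. Among the 21 G2/M genes 7 were higher and 14 lower, with a median of -0.10. The G2/M median was -0.02 without control replicate 1, -0.04 without minocycline replicate 1 and -0.02 with scaling by total count. With a correction for transcript length and GC (described further on) it was -0.14. The S phase median was -0.07 without control replicate 1. The difference of the medians was 0.08, and it turned to -0.05 without control replicate 1. In each library the mean log2 CPM of the S phase genes exceeded that of the G2/M genes, by 0.09, 0.17 and 0.30 in control replicates 1, 2 and 3 and by 0.39, 0.22 and 0.11 in minocycline replicates 1, 2 and 3. The groups overlapped (0.19 ± 0.11 and 0.24 ± 0.14, SD, n = 3). Minocycline replicate 1 had the highest difference, with its G2/M genes 0.19 below their mean over the 6 libraries. Each of the 3 labelled batches pairs a control with a minocycline library. In batches 1, 2 and 3 the S phase genes had a median log2 difference of 0.04, 0.02 and -0.16, and the G2/M genes one of -0.07, 0.03 and -0.10. No direction was shared by all 3 batches in either set.

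**Figure D2:**
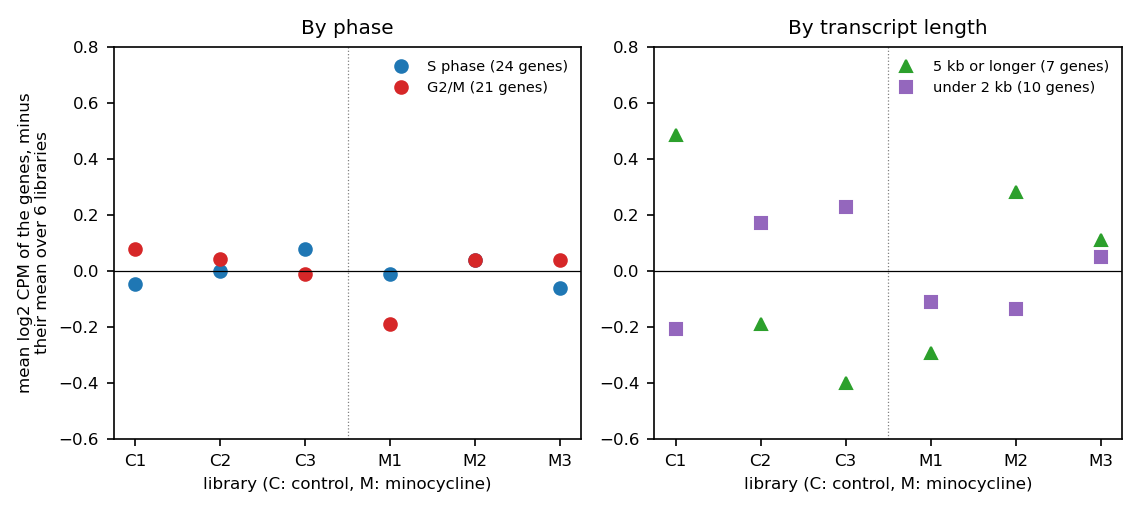
Mean log2 CPM of gene sets in each library, minus the mean of the same set over the 6 libraries (C, control; M, minocycline; numbers are replicates), for S phase and G2/M genes on the left and for long and short transcripts on the right. The sets by length spread further than the sets by phase, and control replicates 1 and 3 mark the extremes of the long transcripts; in minocycline replicate 2 the points of both phases coincide.

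The order of libraries varied with transcript length across the set. Lengths were those of the canonical transcript in the gene annotation. All 7 genes with transcripts of 5000 bases or more (POLA1, POLE, KIF11, TOP2A, CENPE, CENPF and MKI67) were higher in control replicate 1 than in the mean of control replicates 2 and 3, by 0.27 to 1.38 on the log2 scale with a median of 0.76. Of the 10 genes under 2000 bases, 1 (CDK1, by 0.03) was higher in control replicate 1, and the median was -0.49. The lowest values were -0.71 for UBE2C, with a transcript of 777 bases, and -0.61 for CDT1, of 2664 bases and 64.3% GC. CCNE2 was an exception to the order by length, at 1.05 with a transcript of 2674 bases, and it had the lowest GC content of the set (34.6%).

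Minocycline replicate 2 differed from its group in the same way for the long and the short genes. It exceeded the mean of minocycline replicates 1 and 3 in all 7 long genes, by 0.19 to 0.74, and in 2 of the 10 short ones, with medians of 0.33 and -0.12. The other 29 genes went differently in the 2 libraries. Of these, 22 were higher in minocycline replicate 2 (median 0.12) and 11 in control replicate 1 (median -0.11), each against the rest of its group. Across the 46 genes, as a description over genes that share the same libraries, the Spearman correlation of the control replicate 1 difference with length was 0.77 and with GC content -0.60. It was 0.45 and -0.41 across all 16515 tested genes with a length. For the minocycline replicate 2 difference, the correlation with length was 0.82 across the 46 genes and 0.39 across all genes. What set these libraries apart was not tested. S phase and G2/M genes are both found at each end of this order, and their medians in control replicate 1 were -0.12 and -0.05. The fitted log2 fold change with minocycline also varied with length. Its Spearman correlation with length was 0.53 across the 46 genes and 0.28 across the 16515 genes. A fitted level above control was found for 1 of the 10 short genes, 6 of the 7 long ones and 7 of the other 29. How far length accounts for the direction of the fold changes was not tested.

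**Figure D3:**
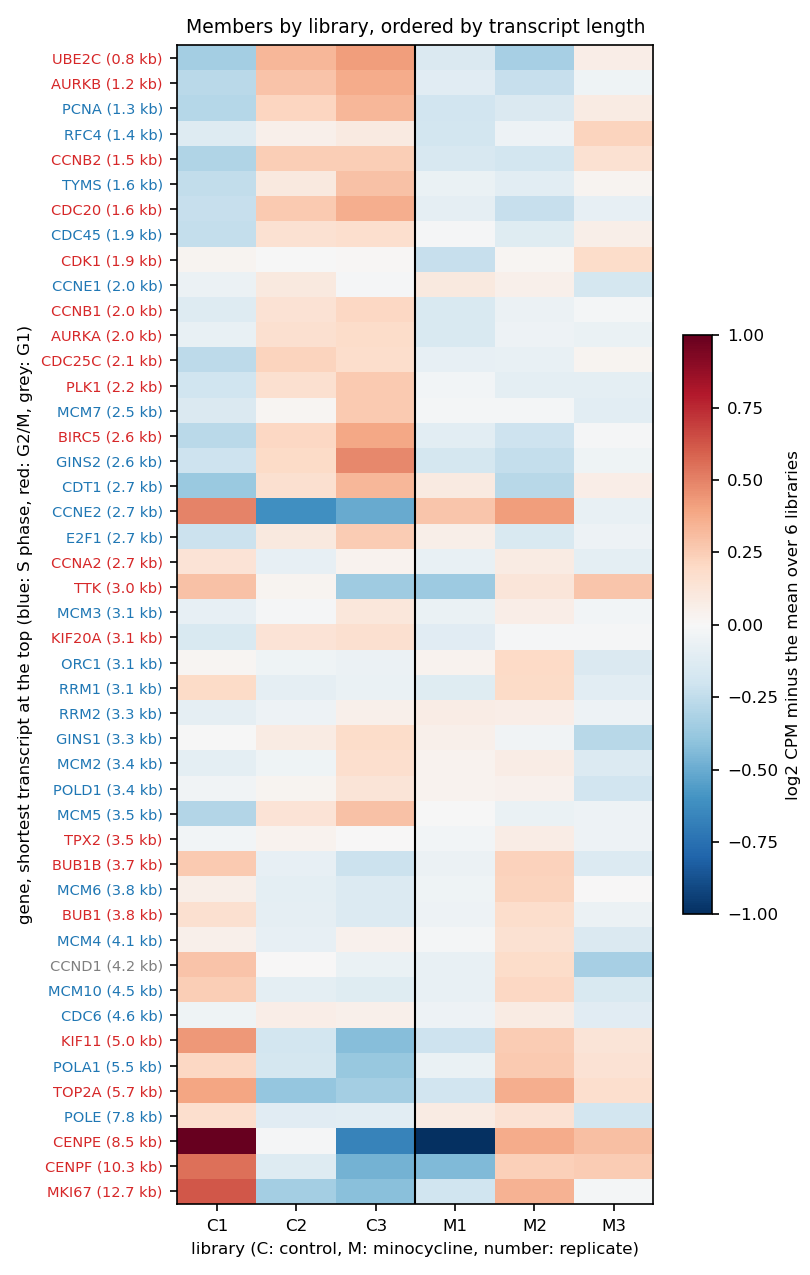
Log2 CPM of each gene in each library minus the gene's mean over the 6 libraries, with genes ordered from the shortest canonical transcript (top) to the longest (bottom); label colours give the phase, and the colour scale stops at 1 in either direction, which CENPE exceeds. Control replicate 1 (C1) and minocycline replicate 2 (M2) are low for most short and high for the long transcripts, and control replicates 2 and 3 (C2, C3) mostly show the reverse.

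**Figure D4:**
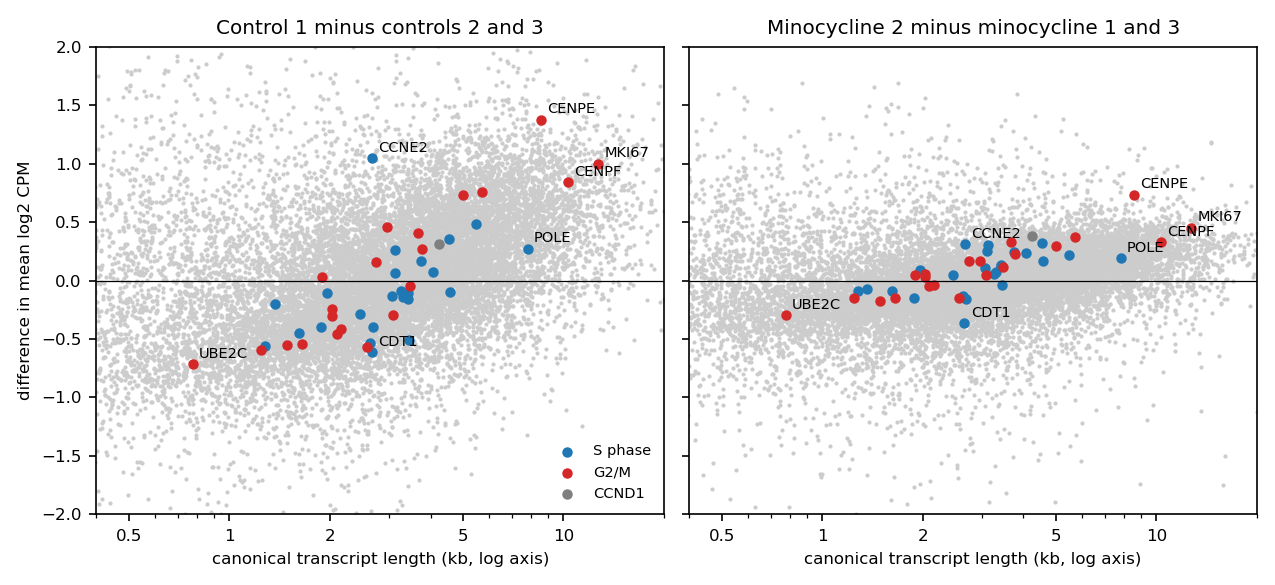
Difference in log2 CPM between control replicate 1 and the other controls (left) and between minocycline replicate 2 and the other minocycline libraries (right), against canonical transcript length on a log axis; grey points are all tested genes within the axis limits and coloured points are the 46 genes. UBE2C lies low and CENPE and MKI67 high in both panels, with a wider range on the left.

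The omission of 1 library changed the calls. Without control replicate 1, 8 of the 46 genes passed in edgeR's test, and 17.9% of all genes did. The lower ones were UBE2C (log2 fold change -0.51, edgeR adjusted p = 0.0138), GINS2 (-0.49, 0.0149), AURKB (-0.46, 0.0137), CDC20 (-0.45, 0.0163) and BIRC5 (-0.41, 0.0260). The higher ones were CCNE2 (0.78, 0.0137), TOP2A (0.49, 0.0295) and MKI67 (0.44, 0.0477). Of the lower ones, UBE2C, AURKB and CDC20 have transcripts under 2000 bases. Of the higher ones, TOP2A and MKI67 have transcripts of 5000 bases or more. The lengths of GINS2, BIRC5 and CCNE2 lie between these limits. Each of these 8 passed in that setting and in none of the other 16, in which the adjusted p of each reached 1.00. The share of the set that passed was close to that of all genes. A separate fit kept all 6 libraries and removed the trends of length and GC from each, a step added after the data had been seen. As in the fit of all 6 libraries without that step, 0 of 46 genes passed (smallest edgeR adjusted p = 0.489). The log2 fold change moved from 0.20 to 0.07 for TOP2A, from 0.02 to -0.10 for MKI67, from -0.33 to -0.37 for GINS2, from -0.31 to -0.26 for UBE2C and from -0.29 to -0.20 for CDC20. The correction was not combined with the omission of control replicate 1.

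No gene of the further pathway lists passed with all 6 libraries, and some passed without control replicate 1, where 17.9% of all genes did. Of 48 further replication genes tested 0 passed in either direction, 19 had a higher and 29 a lower fitted level, and the median was -0.05. Without control replicate 1, 7 of the 48 passed, 3 of them higher. The smallest unadjusted p in this list belonged to the histone chaperone gene ASF1B (-0.36 ± 0.21) and the thymidine kinase gene TK1 (-0.31 ± 0.19; edgeR adjusted p = 0.820 for both). Of 60 further mitosis genes 0 passed, 27 were higher and 33 lower, and the median was -0.02. Without control replicate 1, 14 of the 60 passed, 6 of them higher. CKS2, a CDK-binding subunit, measured 77.1, 110.9 and 127.6 CPM in control and 66.6, 62.9 and 90.5 CPM with minocycline (-0.52 ± 0.21; edgeR adjusted p = 0.820, unadjusted p = 0.0330). The securin gene PTTG1 showed -0.38 ± 0.19 (edgeR adjusted p = 0.820). In both genes control replicate 1 lay within the minocycline range.

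No inhibitor gene of the cyclin-dependent kinases passed with all 6 libraries. Of 8 measured, 1 had a higher and 7 a lower fitted level, and the median was -0.27. Without control replicate 1, where 17.9% of all genes passed, 4 of the 8 did, all lower. CDKN1A, the p21 gene, measured 205.0, 335.9 and 386.4 CPM in control and 270.2, 228.7 and 261.2 CPM with minocycline, a log2 fold change of -0.29 ± 0.21 (edgeR adjusted p = 0.825). CDKN1B, the p27 gene, measured 70.3, 77.8 and 75.5 CPM in control and 62.1, 66.0 and 67.5 CPM with minocycline. Its minocycline libraries lay below every control library, and the log2 fold change of -0.19 ± 0.12 did not pass (edgeR adjusted p = 0.820). Groups did not overlap in 1 of the 8 inhibitor genes and in 9.31% of all genes. CDKN1C and CDKN2A, which had the smallest unadjusted p of the list, showed -0.63 ± 0.31 and -0.44 ± 0.23 (edgeR adjusted p = 0.820 for both). Among 25 other regulators of G1 and the G1/S step 0 passed, with 14 higher and 11 lower and a median of 0.02, and 4 passed without control replicate 1, 3 of them higher. The smallest unadjusted p belonged to the cyclin gene CCND3 (-0.32 ± 0.15) and the repressor gene E2F7 (0.29 ± 0.17; edgeR adjusted p = 0.820 for both). Of 11 genes of quiescence and arrest 0 passed (median -0.06), and 2 without control replicate 1, with TOB1 at -0.25 ± 0.12 and FOXO3 at 0.26 ± 0.16 (edgeR adjusted p = 0.820 for both). Of 25 listed replication-dependent histone genes, whose transcripts normally end without a poly(A) tail, 15 were matched and 10 tested. Again 0 passed, with a median of -0.05, and 1 passed without control replicate 1. The smallest unadjusted p belonged to H2BC12 (-0.40 ± 0.22) and H2AC20 (-0.58 ± 0.39; edgeR adjusted p = 0.820 for both). The summed level of the 15 matched histone genes was 104.8 to 185.8 CPM in control and 112.3 to 142.7 CPM with minocycline.

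In GRCh37 coordinates of the gene annotation, GINS2 (ENSG00000131153.4) occupies chromosome 16, minus strand, bases 85709804 to 85723679. CENPE (ENSG00000138778.7) occupies chromosome 4, minus strand, bases 104026506 to 104119602. UBE2C (ENSG00000175063.12) occupies chromosome 20, plus strand, bases 44441215 to 44445596. The annotation lists these genes as protein-coding, and each count covers a whole gene. The promoter stretches above carry GRCh38 coordinates of another annotation, and no position was carried from one build to the other.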

How the data were processed

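The authors deposited raw gene counts (whole numbers, not normalized) of 6 libraries in 1 table, and per the submitters' processing notes the build was hg19. No source used here names the aligner, the counting program or the strand setting. Groups came from the treatment labels. The members and gene lists were chosen with earlier results of these data known.

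Identifiers were matched to symbols by gene ID without version. Transcript length and GC came from the canonical transcript of a GENCODE annotation on GRCh37, which has the coordinates of hg19. Genes were filtered with filterByExpr, scaled with TMM factors and tested with edgeR 4.0.16 (glmQLFit and glmQLFTest, R 4.3.3), treatment as the single term, with Benjamini-Hochberg adjustment over 17225 genes and a threshold of 0.05. The SE is the log2 fold change divided by the square root of F, and the 95% interval uses the fit's t quantile. Log2 CPM used a prior count of 1. The code was tested on simulated data.

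Alternatives were DESeq2 1.42.0, limma-voom (limma 3.58.1), scaling by library size, RLE or upper quartiles, no filter, at least 10 counts in every library, the replicate block, 1 surrogate variable (sva 3.50.0) and each library left out. Splines of length and GC per library (4 degrees of freedom each, with values for 16515 genes) were added after the data were seen, without and with the block.

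Same-numbered libraries share a batch in the labels, and the pairing rests on that label. Deviations from group means correlated at -0.04, -0.27 and 0.29 in the same-numbered pairs and at 0.48 between control replicate 1 and minocycline replicate 2. Between replicates, chi-square divided by its degrees of freedom was 5.8 to 63.6, above sampling noise. Promoter stretches were limited to words before the start, a limit added to the planned rule. Text values name the 3 genes with the smallest unadjusted p in each role, the 2 of each further list, CDKN1A and CDKN1B, and give the other members by level.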

Additional observations from a re-analysis of the deposited data

How the results depend on the processing

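The count of 0 of 46 genes past the threshold held in 16 of 17 alternatives, and without each library in turn it ran from 0 to 8, with 8 without control replicate 1. With the replicate block the count was 0, the S phase median was -0.0217 and the G2/M median -0.0872, and the block changed no call of these genes. The S phase median of -0.0214 became 0.0468 with library size scaling and -0.0419 with the length and GC correction. It ran from -0.0681 to 0.00606 without each library in turn. The G2/M median of -0.101 became -0.0216 with library size scaling and -0.0558 with 1 surrogate variable. It became -0.136 with the length and GC correction, -0.137 with the replicate block added to that, and -0.121 with DESeq2. Without each library in turn it ran from -0.127 to -0.0188, with -0.0418 without minocycline replicate 1. The difference between the S phase and G2/M medians ran from -0.0493 (without control replicate 1) to 0.113 (without minocycline replicate 3). With the length and GC correction it was 0.0944.

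Of 26 genes named with fold changes, 13 changed sign in at least 1 alternative, and none of these reversals passed the threshold. With 1 surrogate variable the log2 fold change became 0.0291 for PCNA, 0.0644 for TYMS, 0.0484 for E2F1, 0.0791 for CCNB2, 0.0594 for CDC25C, -0.118 for KIF11, -0.00739 for TOP2A and -0.250 for MKI67. With library size scaling it became 0.0442 for RRM1 and 0.0591 for CCNE1. With the length and GC correction it became 0.00689 for POLD1, -0.0355 for RRM2, -0.0259 for KIF11 and -0.0986 for MKI67, and with the replicate block added 0.00284, -0.0313, -0.0228 and -0.0918. Without each library in turn it ran from -0.132 to 0.0691 for RRM1, -0.247 to 0.00902 for TYMS, -0.0687 to 0.0532 for CCNE1, -0.612 to 0.307 for CENPE, -0.0946 to 0.368 for KIF11 and from -0.17 to 0.437 for MKI67. The causes were not tested. All libraries had a similar total count, and no alternative varied depth.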

Other observations

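ENOSF1, whose exons overlap those of TYMS on the opposite strand of chromosome 18, was picked out after its values had been seen. It measured 66.8, 55.9 and 55.7 CPM in control and 85.6, 85.5 and 74.8 CPM with minocycline. Each minocycline library lay above each control library, and in 9.31% of all genes the groups did not overlap. The log2 fold change of ENOSF1 was 0.46 ± 0.13 and did not pass over all genes (edgeR adjusted p = 0.820, unadjusted p = 0.00638). It passed in 1 of 17 alternatives, the omission of control replicate 1 (adjusted p from 0.00777 to 1.00 over the alternatives). In that setting 17.9% of all genes passed. TYMSOS, a noncoding RNA gene that also overlaps TYMS on the opposite strand, measured 9.73, 16.5 and 20.5 CPM in control and 9.45, 8.05 and 11.9 CPM with minocycline, a log2 fold change of -0.67 ± 0.27 (edgeR adjusted p = 0.820, unadjusted p = 0.0352). It also passed in 1 of 17 alternatives, the omission of control replicate 1 (adjusted p from 0.00513 to 1.00 over the alternatives). Its groups overlapped through control replicate 1. Since no source used here states whether counting was strand-aware, reads of the 3 genes may have been exchanged, and how far was not tested.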
